A study of Mus musculus with 4 samples.

Results

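Collagens, laminins and the other proteins of the extracellular matrix were examined in cultured 4T1 cells, an established mouse mammary carcinoma line, with the gene for the death receptor CD95 (Fas) intact or targeted. The set is a list of 43 genes for matrix proteins and the enzymes that modify them, chosen by gene symbol with earlier results of these data known. Of these, 29 reached 1 TPM (a transcript level normalised for transcript length and library size) in at least 1 of the 4 libraries, out of 24411 genes listed. Poly(A)-selected RNA was sequenced from 2 libraries labelled control (control 1 and control 2) and 2 labelled CD95ko (CD95ko 1 and CD95ko 2). Per the labels' protocols, the knockout lines are single-cell clones of 4T1 cells that stably express Cas9 from a lentivirus under blasticidin selection, transfected with a guide pair for deletion of exon 9 of the CD95 gene. Each CD95ko library is therefore 1 clone, and both clones carry Cas9. The protocols name a control and a Cas9-expressing line as further RNA sources, but the titles leave the controls unassigned to these sources. No label states that the libraries of a group are repeated cultures, so the p-values measure only the spread between these libraries.

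The extracellular matrix consists of a basement membrane, which epithelial cells lay down beneath themselves, and an interstitial matrix, made mostly by fibroblasts. The basement membrane joins a collagen IV network to a laminin network, with perlecan, agrin and nidogen between them, while the interstitial matrix is built on fibrillar collagens I, III and V with fibronectin and small proteoglycans. Collagen chains fold as triple helices in the endoplasmic reticulum, where prolyl and lysyl hydroxylases modify them and the chaperone HSP47 binds them, and lysyl oxidases crosslink them outside the cell.

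The targeted gene and the cell identity were checked first. Fas was listed at 49.4 and 39.2 TPM in controls 1 and 2, at 15.8 TPM in the library labelled CD95ko 1 and at 49.5 TPM in the library labelled CD95ko 2. The transcript was thus below both controls in the library labelled CD95ko 1 but not in the one labelled CD95ko 2, and a gene-level value cannot show the loss of an exon, so directions below refer to the libraries as labelled. Of 8 mammary epithelial markers, 7 reached 1 TPM and Krt5 was listed at 0, and their summed level was 4574 and 4596 TPM in the controls against 8141 and 12594 TPM in the libraries labelled CD95ko 1 and CD95ko 2. Of 8 fibroblast markers, 6 (Pdgfrb, Thy1, Fap, Dpt, Col14a1 and Pi16) were listed at 0 in every library, and the list summed to between 1.47 and 3.53 TPM. Of 5 endothelial markers, 4 (Pecam1, Cdh5, Kdr and Emcn) were listed at 0 throughout, and the list summed to at most 0.28 TPM. The leukocyte markers Ptprc, Adgre1 and Cd3e were listed at 0 throughout. Cd68 and Csf1r were present: Cd68 was at 44.6 and 42.05 TPM in controls 1 and 2 and at 17.8 and 146 TPM in the libraries labelled CD95ko 1 and CD95ko 2, and Csf1r was at 1.22 and 0 TPM in the controls and at 22.2 and 5.07 TPM in the libraries labelled CD95ko 1 and CD95ko 2. These leukocyte markers thus summed to between 40.05 and 45.8 TPM in 3 libraries and to 151 TPM in the library labelled CD95ko 2. The sum of the epithelial markers moved with the group, but Krt14 did not. Krt14 was at 24.1 and 20.65 TPM in controls 1 and 2 and at 6.98 and 158 TPM in the libraries labelled CD95ko 1 and CD95ko 2. The part of the epithelial markers and of Cd68 and Csf1r in the matrix values below was not tested.

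Of the genes on the list, those of the basement membrane were mostly expressed in these cells, and fibrillar collagens and small proteoglycans mostly were not. The list was chosen with earlier results known, so these counts depend on that choice. Outside it, Lama1, Lama2, Lama4, Nid2 and Col4a4 were listed at 0 in every library, while Col7a1 was at 13.4 TPM or more. All 9 laminin and basement membrane genes, all 5 collagen-modifying genes and 6 of 8 network and other collagens on the list reached 1 TPM, against 2 of 5 fibrillar collagens and 0 of 3 small leucine-rich proteoglycans. By summed level, the 9 laminin and basement membrane genes stood at 565.5 and 421 TPM in controls 1 and 2 and at 682 and 881 TPM in the libraries labelled CD95ko 1 and CD95ko 2. The 9 glycoproteins and matricellular genes stood at 525 and 214 TPM in the controls and at 445 and 1551 TPM in the libraries labelled CD95ko 1 and CD95ko 2, so they led only in the library labelled CD95ko 2. The 43 genes together made up 1984 TPM (0.198% of the library) in control 1, 1413 TPM (0.141%) in control 2, 2002 TPM (0.200%) in the library labelled CD95ko 1 and 3629.6 TPM (0.363%) in the library labelled CD95ko 2. The sum was lowest in control 2 and highest in the library labelled CD95ko 2, while control 1 and the library labelled CD95ko 1 were close. Fn1, the gene for fibronectin, accounted for 25.4% of the sum in the library labelled CD95ko 2 and for 10.7% to 17.5% in the other libraries. By mean level over the 4 libraries, Fn1, Serpinh1, Lamb1, Thbs1, Col4a1, Col4a2 and Lama5 led the list, each above 129 TPM. At the edge of the rule, Col1a1 (1.38 TPM) and Tnc (1.47 TPM in control 1 and listed at 0 elsewhere) lay just inside by their highest values, and Loxl1 (0.99 TPM) and Fbln1 (0.98 TPM) just outside.

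**Figure D1:**
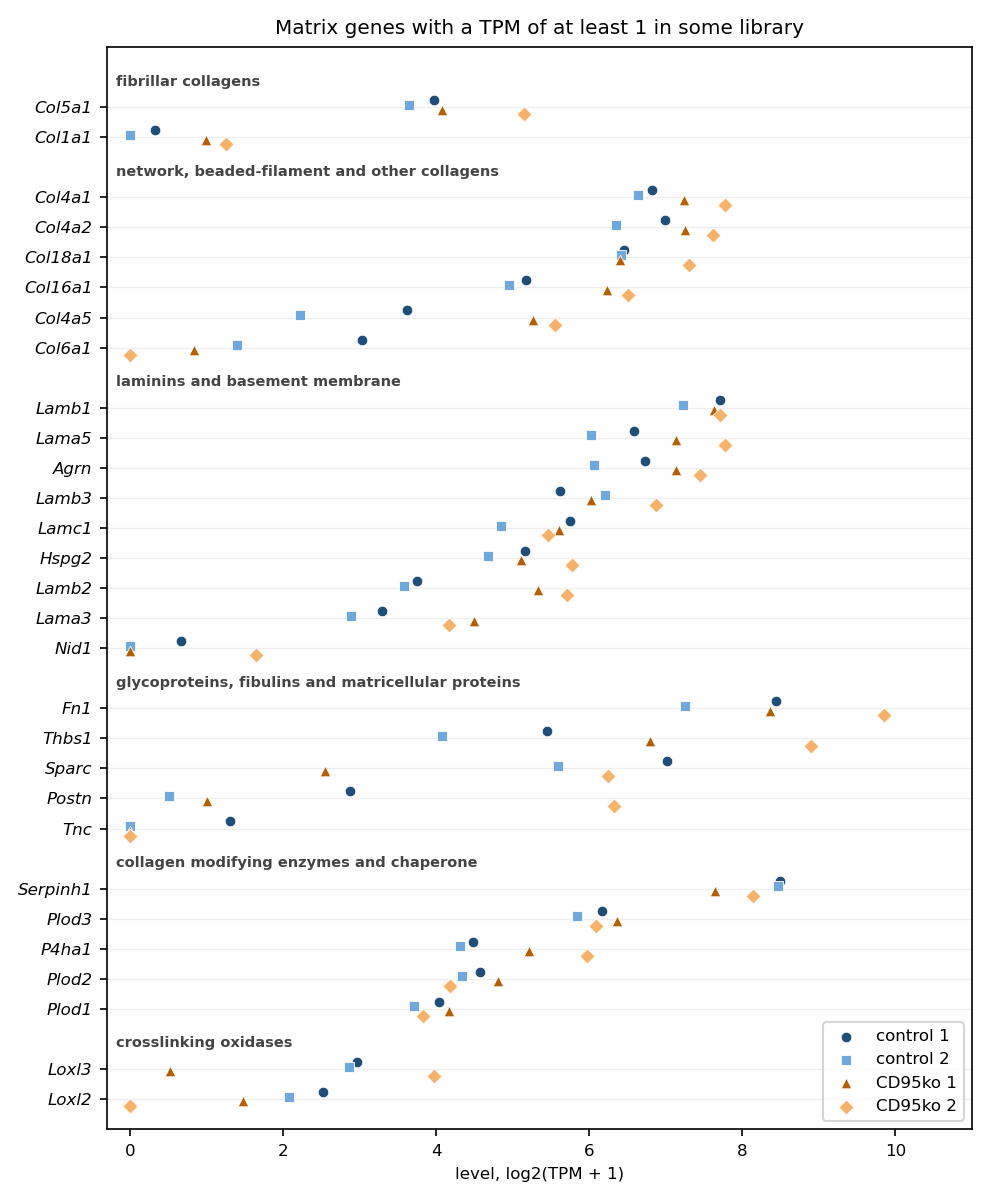
Level of the 29 matrix genes that reached 1 TPM, as log2(TPM + 1) on the horizontal axis, with 1 symbol for each of the 4 libraries (offset vertically for legibility) and genes grouped by role. Col4a5, Col16a1, Lamb2 and Thbs1 have both libraries labelled CD95ko to the right of both controls, whereas Sparc and Postn spread widely within the groups.

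Between the groups, 0 of the 26 matrix genes that entered the test passed an adjusted p of 0.05 (limma with Benjamini-Hochberg adjustment over all 11167 genes tested, of which 6, or 0.0537%, passed). At an unadjusted p under 0.05 in limma, 10 of the 26 were higher in the libraries labelled CD95ko, where 9.25% of all genes were, and 1 was lower, where 5.68% of all genes were. In 11 of the 26 both libraries labelled CD95ko lay above both controls, against 29.2% of all genes, and in 3 they lay below both, against 18.3%. Col4a5, Col16a1, Lamb2 and Thbs1 were over 2-fold higher in all 4 pairs of a CD95ko with a control library, on the log2(TPM + 1) scale that all fold changes here use, and this held for 3.53% of all genes. None of the 26 was over 2-fold lower in all 4 pairs, against 1.96% of all genes. The median log2 fold change of the 26 genes was 0.65, against 0.13 for all genes tested. Quantile normalization moved these medians to 0.52 and 0.002. Filtering kept 26 of the 29 genes, and genes high in 1 group only can pass the filter through that group, so these counts are a description.

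The count and the median depended on the libraries and on transcript properties. Without the library labelled CD95ko 1 the median log2 fold change of the 26 genes was 1.00. Without the one labelled CD95ko 2 it was 0.33. In each of these fits the lone CD95ko library is assumed to vary as the controls do. The 26 genes have long and GC-rich transcripts, with a median length of 5612 nucleotides and a median GC content of 56.0%, against 3066 nucleotides and 50.3% for all genes with a value. When each library was corrected for transcript length and GC content, the median log2 fold change of the 26 genes was 0.29, against 0.13 for all genes, and 22 of the 26 values were lower than before. Under that correction 7 of the 26 were higher at an unadjusted p under 0.05 in limma (9.89% of all genes) and 3 were lower (5.45% of all genes). These 10 include 8 of the 11 genes called without it: Col4a1, Agrn and Fn1 dropped out, and Serpinh1 and Loxl2, both lower, came in. With the library medians set equal, 7 were higher (7.23% of all genes) and 2 lower (9.32%).

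**Figure D2:**
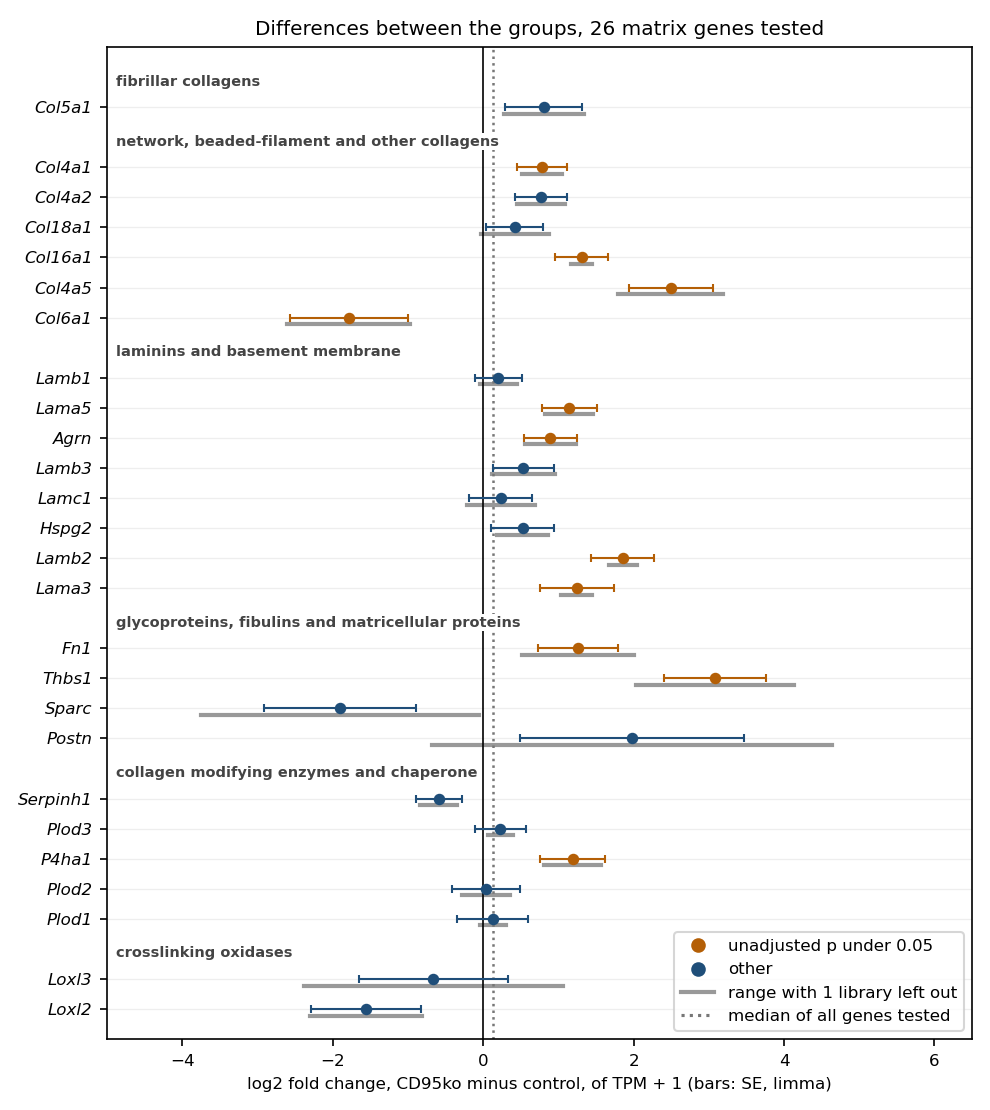
Log2 fold change of TPM + 1, libraries labelled CD95ko minus controls, for the 26 matrix genes tested (points, with the limma standard error as bars, n = 2 in each group). Grey lines span the values with 1 library left out. Most points lie right of the dotted median of all genes (0.13), and the grey lines of 7 genes cross 0 (Col18a1, Lamb1, Lamc1, Postn, Plod1, Plod2 and Loxl3).

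Fibrillar collagens, the rope-like collagens of connective tissue, were close to absent. Col3a1 and Col5a2 were listed at 0 in all 4 libraries. Col1a1, the α1 chain of collagen I, was listed at 0.25 and 0 TPM in controls 1 and 2 and at 0.99 and 1.38 TPM in the libraries labelled CD95ko 1 and CD95ko 2. Col1a2, its partner chain, was at 0.46 TPM in control 1 and listed at 0 in the other libraries. The only fibrillar chain above a few TPM was Col5a1, which belongs to the collagen V that starts fibril assembly. It stood at 14.6 and 11.49 TPM in the controls and at 15.9 and 34.3 TPM in the libraries labelled CD95ko 1 and CD95ko 2. The groups did not overlap, but CD95ko 1 was nearly level with control 1, and the difference did not pass the test (log2 fold change 0.81 ± 0.51 SE, limma adjusted p = 0.495).

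Collagen IV, the sheet-forming collagen of basement membranes, was the main collagen. Its common trimer holds α1 and α2 chains, whose genes Col4a1 and Col4a2 lie head to head on chromosome 8, at 11198423 to 11312826 on the reverse strand and 11312805 to 11449287 on the forward strand (GRCm38, GENCODE M21). Their promoter windows from RefSeq (GRCm38.p6, 250 bases before to 50 after each start) are shown because the pair of transcripts moved together and the windows share sequence. The windows are chr8:11312777-11313076, reverse strand, for Col4a1 and chr8:11312555-11312854, forward strand, for Col4a2. Capitals mark the 78 bases present in both, as reverse complements of each other, and 22 of these lie downstream of both start sites.
Col4a1: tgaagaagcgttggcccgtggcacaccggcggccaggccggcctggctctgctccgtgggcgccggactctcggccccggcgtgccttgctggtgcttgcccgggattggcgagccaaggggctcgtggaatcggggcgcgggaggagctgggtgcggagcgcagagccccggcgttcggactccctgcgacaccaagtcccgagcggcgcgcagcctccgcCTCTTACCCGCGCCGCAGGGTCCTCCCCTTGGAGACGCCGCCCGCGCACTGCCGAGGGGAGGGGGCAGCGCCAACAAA
Col4a2: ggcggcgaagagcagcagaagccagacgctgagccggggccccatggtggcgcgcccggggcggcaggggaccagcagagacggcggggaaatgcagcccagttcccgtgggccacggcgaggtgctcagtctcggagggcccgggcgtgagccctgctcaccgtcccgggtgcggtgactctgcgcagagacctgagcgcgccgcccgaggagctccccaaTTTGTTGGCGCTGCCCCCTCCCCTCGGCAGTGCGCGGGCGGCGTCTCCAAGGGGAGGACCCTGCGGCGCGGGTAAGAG

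The shared stretch has a GC content of 73.1%, and the whole windows 74.0% and 73.7%, against a median of 52.7% over all promoter windows of the table. It holds 1 GC box, searched as GGGCGG on both strands, and this motif occurred in 35.7% of all 32851 windows and in 17 of the 26 windows found for 21 of the 29 matrix genes. Col4a1 was at 112 and 98.0 TPM in controls 1 and 2 and at 149.9 and 218.5 TPM in the libraries labelled CD95ko 1 and CD95ko 2. Col4a2 was at 126 and 80.7 TPM in the controls and at 152 and 196 TPM in the libraries labelled CD95ko 1 and CD95ko 2. For both chains the groups did not overlap, with the library labelled CD95ko 2 highest. The differences were alike in size and did not pass the test (log2 fold change 0.78 ± 0.33 SE, limma adjusted p = 0.311 for Col4a1, and 0.77 ± 0.35 SE, limma adjusted p = 0.346 for Col4a2). After correction for transcript length and GC content they were 0.40 and 0.35. The ratio of Col4a1 to Col4a2 was 0.890 and 1.21 for controls 1 and 2, and it was 0.989 and 1.12 for the libraries labelled CD95ko 1 and CD95ko 2, so the chains kept near parity on the TPM scale in each library. The gene models overlap by 22 bases on opposite strands, which is 0.29% of the exonic bases of Col4a1.

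Col4a5, on chromosome X (141475385 to 141689234, forward strand), encodes the α5 chain, which forms other collagen IV trimers, among them those of the kidney glomerulus. It was at 11.2 and 3.64 TPM in controls 1 and 2 and at 37.3 and 45.9 TPM in the libraries labelled CD95ko 1 and CD95ko 2. Both CD95ko libraries lay over 3-fold above the higher control. The log2 fold change of Col4a5 was 2.49 ± 0.56 SE and had an unadjusted p under 0.05, but it did not pass over all genes (limma adjusted p = 0.136). It was 2.64 without the library labelled CD95ko 1 and 2.35 without the one labelled CD95ko 2. The separation of Col4a5 from the more abundant α1 and α2 chains thus narrowed in the libraries labelled CD95ko, as the plot of the chains by library shows.

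Among the remaining collagens, Col16a1 encodes a fibril-associated collagen that sits at the surface of fibrils and basement membranes. It was at 35.1 and 29.9 TPM in controls 1 and 2 and at 73.8 and 90.2 TPM in the libraries labelled CD95ko 1 and CD95ko 2 (means 32.5 ± 3.71 and 82.0 ± 11.6 TPM, SD, n = 2 each). Each group was tight, the groups lay well apart, and the log2 fold change was 1.31 ± 0.36 SE (limma adjusted p = 0.167). Col18a1, a basement membrane collagen whose tail is released as endostatin, was at 86.9 and 84.6 TPM in the controls and at 83.6 and 157.5 TPM in the libraries labelled CD95ko 1 and CD95ko 2. Only the library labelled CD95ko 2 stood apart, the groups overlapped, and without it the log2 fold change of 0.42 ± 0.38 SE (limma adjusted p = 0.638) became -0.04.

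Collagen VI, which forms beaded filaments from 3 chains, went the other way at a low level. Col6a1 was at 7.13 and 1.63 TPM in controls 1 and 2, at 0.79 TPM in the library labelled CD95ko 1 and listed at 0 in the one labelled CD95ko 2. It was the only matrix gene lower at an unadjusted p under 0.05 (log2 fold change -1.79 ± 0.78 SE, limma adjusted p = 0.332), although the controls themselves differed, with control 2 minus control 1 at -1.63 on the log2(TPM + 1) scale. Col6a1 reached 1 TPM in the controls only, so it entered the test through the group where it was high. Its p-value is therefore a description. Its partner Col6a2 was at 0.64 TPM in control 1 and listed at 0 in the other libraries, and Col6a3 was listed at 0 in every library. Col12a1, a fibril-associated collagen, reached only 0.11 TPM, in control 2.

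Laminins are trimers of an α, a β and a γ chain and carry the cell's contact to the basement membrane through integrins and dystroglycan. Lama5, on chromosome 2 (180176373 to 180225859, reverse strand), encodes the α chain of the broadly expressed laminin α5β1γ1. It was at 95.2 and 64.2 TPM in controls 1 and 2 and at 139.5 and 218 TPM in the libraries labelled CD95ko 1 and CD95ko 2. Both CD95ko libraries were above both controls (log2 fold change 1.15 ± 0.37 SE, limma adjusted p = 0.2185). The log2 fold change was 1.47 without the library labelled CD95ko 1 and 0.83 without the one labelled CD95ko 2. The β and γ chains of the same trimer had overlapping groups. Lamb1 was at 208 and 148 TPM in the controls and at 197 and 207 TPM in the libraries labelled CD95ko 1 and CD95ko 2 (log2 fold change 0.20 ± 0.31 SE, limma adjusted p = 0.803). Lamc1 was at 52.8 and 27.7 TPM in the controls and at 47.5 and 42.95 TPM in the libraries labelled CD95ko 1 and CD95ko 2 (log2 fold change 0.23 ± 0.42 SE, limma adjusted p = 0.838). For both genes only control 2 was low, and without control 2 the values were -0.04 for Lamb1 and -0.22 for Lamc1. Correction for transcript length and GC content also brought them just below 0, to -0.02 and -0.03. The ratio of Lama5 to Lamb1 was 0.458 and 0.432 in the controls, 0.707 in the library labelled CD95ko 1 and 1.05 in the one labelled CD95ko 2, while the ratio of Lamc1 to Lamb1 stayed between 0.187 and 0.254.

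Lamb2, the β chain that replaces Lamb1 in other laminins, lies on chromosome 9 (108479736 to 108490530, forward strand). It was at 12.5 and 10.9 TPM in controls 1 and 2 and at 39.3 and 51.2 TPM in the libraries labelled CD95ko 1 and CD95ko 2 (means 11.7 ± 1.07 and 45.2 ± 8.37 TPM, SD, n = 2 each). The lower CD95ko library was 1.58 above the higher control on the log2(TPM + 1) scale, the largest separation among the laminin chains on the list of 43. The log2 fold change was 1.85 ± 0.42 SE (limma adjusted p = 0.138). It was 2.04 without the library labelled CD95ko 1 and 1.67 without the one labelled CD95ko 2.

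Lama3 and Lamb3 encode the α and β chains of the epithelial laminin of hemidesmosomes. Lama3 was at 8.81 and 6.36 TPM in controls 1 and 2 and at 21.6 and 17.0 TPM in the libraries labelled CD95ko 1 and CD95ko 2, with no overlap (log2 fold change 1.25 ± 0.49 SE, limma adjusted p = 0.284). Lamb3 was at 47.95 and 72.9 TPM in the controls and at 63.97 and 116 TPM in the libraries labelled CD95ko 1 and CD95ko 2, with overlapping groups (log2 fold change 0.53 ± 0.41 SE, limma adjusted p = 0.576). It was the only tested matrix gene higher in control 2 than in control 1. The ratio of Lama3 to Lamb3 was 0.184 and 0.0872 for controls 1 and 2, and it was 0.337 and 0.147 for the libraries labelled CD95ko 1 and CD95ko 2, so the α chain was the less abundant in all 4 libraries.

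**Figure D3:**
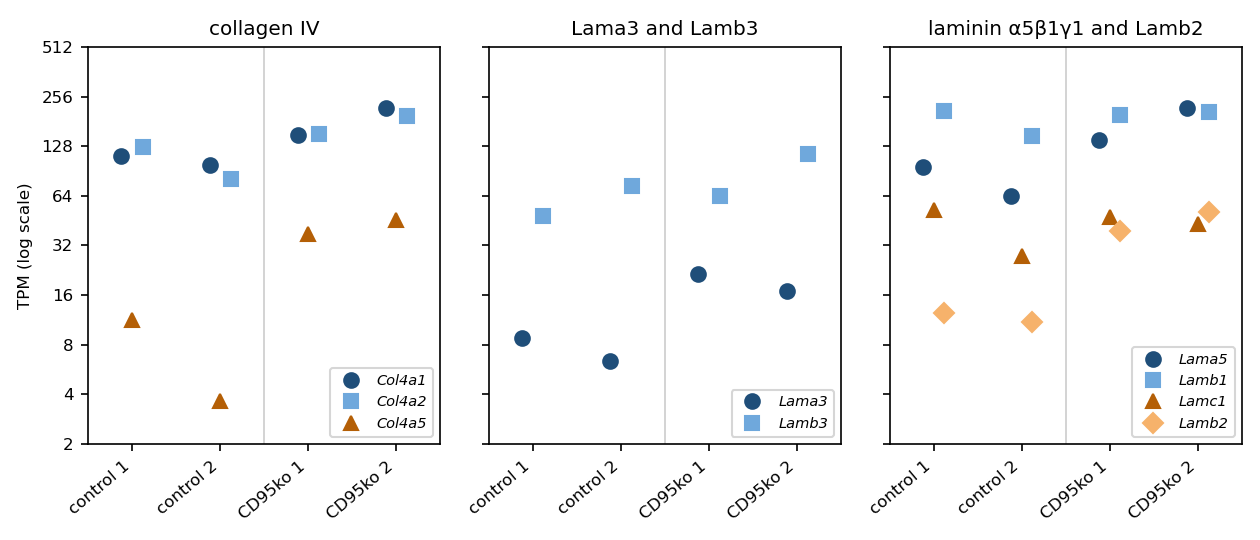
TPM (log scale) of chains of collagen IV, of Lama3 and Lamb3, and of laminin α5β1γ1 with Lamb2, in each of the 4 libraries, with symbols offset sideways for legibility. Col4a1 and Col4a2 stay together in every library, Col4a5 and Lamb2 step up between the controls and the libraries labelled CD95ko, and Lamb1 and Lamc1 do not.

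Of the proteins that link these networks, agrin is a heparan sulfate proteoglycan that binds laminin and dystroglycan. Agrn was at 105 and 65.7 TPM in controls 1 and 2 and at 139 and 173 TPM in the libraries labelled CD95ko 1 and CD95ko 2, with no overlap (log2 fold change 0.89 ± 0.35 SE, limma adjusted p = 0.283). Hspg2, the gene for perlecan, was lower, between 24.6 and 53.8 TPM, with overlapping groups (limma adjusted p = 0.590). Nid1, the gene for the linker nidogen 1, reached 0.58 TPM in control 1 and 2.13 TPM in the library labelled CD95ko 2 and was listed at 0 in control 2 and in the library labelled CD95ko 1. Over the whole role, 4 of the 8 tested genes had groups that did not overlap, all higher in the libraries labelled CD95ko, against 29.2% of all genes higher and 18.3% lower, and the median log2 fold change was 0.71.

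The glycoproteins and matricellular proteins varied within the groups: all 4 tested were over 2-fold apart between the controls and also between the clones. Fn1, on chromosome 1 (71585520 to 71653200, reverse strand), was at 347 and 151 TPM in controls 1 and 2 and at 329 and 921 TPM in the libraries labelled CD95ko 1 and CD95ko 2. Only the library labelled CD95ko 2 exceeded control 1, so the groups overlapped although the unadjusted p was under 0.05 (log2 fold change 1.26 ± 0.53 SE, limma adjusted p = 0.313). Without that library the value was 0.52, and without the one labelled CD95ko 1 it was 2.00.

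Thbs1 encodes thrombospondin 1, which activates latent TGF-β and restrains vessel growth, and lies on chromosome 2 (118111876 to 118127133, forward strand). It was at 42.5 and 15.9 TPM in controls 1 and 2, at 109.7 TPM in the library labelled CD95ko 1 and at 475 TPM in the one labelled CD95ko 2. The groups did not overlap, but the spread within each was wide, over 2-fold between the controls and over 4-fold between the clones. Its log2 fold change of 3.08 ± 0.68 SE was the highest of the 26 genes and did not pass over all genes (limma adjusted p = 0.136). It was 2.03 without the library labelled CD95ko 2 and 4.14 without the one labelled CD95ko 1. A gene annotated on the opposite strand, Gm29233, shares 3.42% of its exonic bases.

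Sparc encodes osteonectin, a collagen-binding protein of remodelling matrix. It was at 127.9 and 47.1 TPM in controls 1 and 2, at 4.83 TPM in the library labelled CD95ko 1 and at 74.5 TPM in the one labelled CD95ko 2. The library labelled CD95ko 1 was far below both controls, while the one labelled CD95ko 2 lay between them. The log2 fold change was -1.91 ± 1.01 SE (limma adjusted p = 0.411). It was -0.06 without the library labelled CD95ko 1 and -3.76 without the one labelled CD95ko 2, so the difference rested on the clone CD95ko 1.

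Postn encodes periostin, a matricellular protein of injured and tumour stroma. It was at 6.31 and 0.42 TPM in controls 1 and 2, at 1.01 TPM in the library labelled CD95ko 1 and at 79.1 TPM in the one labelled CD95ko 2. The group difference (log2 fold change 1.98 ± 1.49 SE, limma adjusted p = 0.567) rested on 1 clone, since it was -0.68 without the library labelled CD95ko 2. Thbs2 and Efemp1 were listed at 0 in all libraries, Tnc reached 1.47 TPM in control 1 only, Fbln1 0.98 TPM in the library labelled CD95ko 2 only, and Fbn1 0.15 TPM in the library labelled CD95ko 1 only.

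The differences within the groups were compared directly, with 1 library against 1 and so without a test. Control 2 was lower than control 1 for 25 of the 26 genes, against 8477 of the 11167 genes tested, with a median difference of -0.43 on the log2(TPM + 1) scale against -0.35 for all genes. It was over 2-fold lower for 6 of the 26 (Col4a5, Col6a1, Fn1, Sparc, Thbs1 and Postn), against 12.6% of all genes, and over 2-fold higher for 0, against 1.84%. The library labelled CD95ko 2 was over 2-fold above the one labelled CD95ko 1 for 6 of the 26 (Col5a1, Fn1, Sparc, Thbs1, Postn and Loxl3), against 9.9% of all genes, and over 2-fold below it for 1 (Loxl2), against 13.4%. The median difference between the clones was 0.43 for the 26 genes and -0.10 for all genes. Fn1, Sparc, Thbs1 and Postn appear in both sets, lower in control 2 than in control 1 and higher in CD95ko 2 than in CD95ko 1. For Fn1, Thbs1 and Postn the library labelled CD95ko 2 was the highest of all, as it was for Cd68. Sparc in that library (74.5 TPM) lay between control 2 (47.1 TPM) and control 1 (127.9 TPM), and was lowest in the library labelled CD95ko 1 (4.83 TPM). Col4a1, Col4a2 and each tested laminin chain differed by less than 2-fold within either group.

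**Figure D4:**
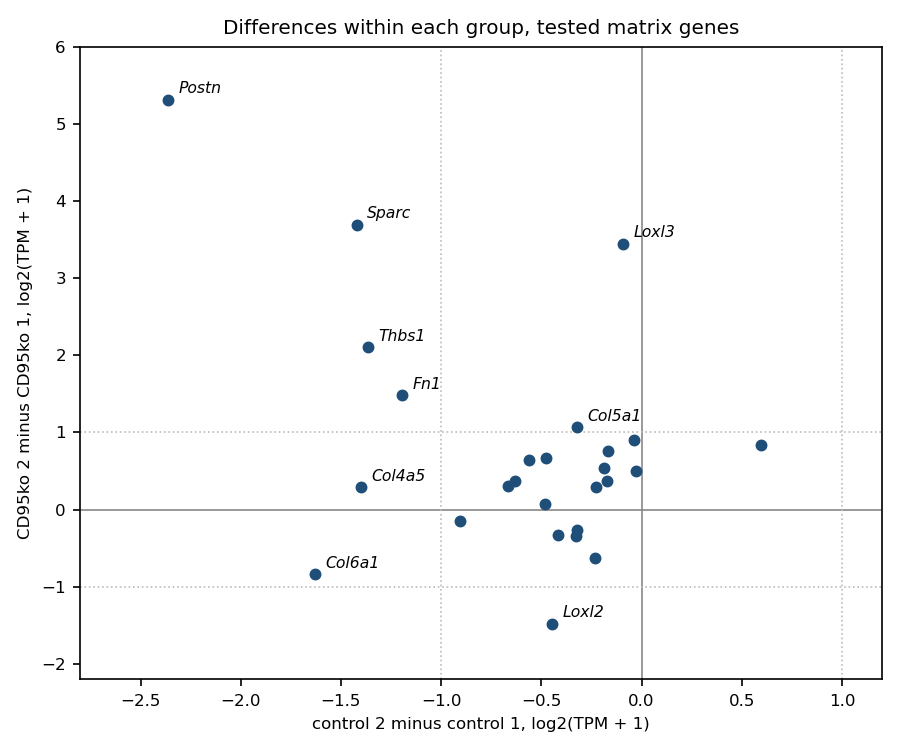
Difference in log2(TPM + 1) between the 2 controls (horizontal axis) and between the 2 libraries labelled CD95ko (vertical axis) for the 26 matrix genes tested, 1 point a gene. Dotted lines mark a 2-fold difference and genes beyond it are named. Fn1, Thbs1, Sparc and Postn lie at the upper left, and most basement membrane genes lie inside the dotted lines.

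Of the 4 collagen hydroxylases on the list of 43, only P4ha1 had groups that did not overlap. It encodes a catalytic subunit of prolyl 4-hydroxylase, the enzyme that makes the hydroxyproline stabilising the triple helix. P4ha1 was at 21.3 and 18.9 TPM in controls 1 and 2 and at 36.0 and 61.4 TPM in the libraries labelled CD95ko 1 and CD95ko 2. The groups did not overlap (log2 fold change 1.19 ± 0.43 SE, limma adjusted p = 0.255). The lysyl hydroxylases Plod1 (12.1 to 17.0 TPM) and Plod2 (17.1 to 27.1 TPM) overlapped between the groups. Plod3, the most abundant of the family, was at 70.5 and 56.2 TPM in the controls and at 81.2 and 67.3 TPM in the libraries labelled CD95ko 1 and CD95ko 2 (log2 fold change 0.23 ± 0.34 SE, limma adjusted p = 0.799, and -0.03 after correction for transcript length and GC content). Outside the list of 43, and named after their values were seen, 3 other tested genes of collagen hydroxylation had groups that did not overlap. P4hb, the β subunit of prolyl 4-hydroxylase, was higher, at 316 and 239.7 TPM in the controls and at 420.3 and 495 TPM in the libraries labelled CD95ko 1 and CD95ko 2 (limma adjusted p = 0.297). The prolyl 3-hydroxylase gene P3h1 was lower, at 9.34 and 9.78 TPM against 7.91 and 7.05 TPM (limma adjusted p = 0.814), and P3h3 was lower at 7.35 and 9.49 TPM against 1.72 and 7.18 TPM (limma adjusted p = 0.521). Serpinh1, the gene for the collagen chaperone HSP47, was at 358 and 352 TPM in the controls and at 198 and 279.6 TPM in the libraries labelled CD95ko 1 and CD95ko 2. It was thus lower in both CD95ko libraries while the client chains Col4a1 and Col4a2 were higher, but the difference did not pass the test (log2 fold change -0.59 ± 0.30 SE, limma adjusted p = 0.398).

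Prolyl and lysyl hydroxylase genes are known targets of the hypoxia-inducible factors. ACGTG is a form of the core of the response element of these factors, and only this form was searched, on both strands of the promoter windows. It stood in those of 4 matrix genes (P4ha1, Plod3, Serpinh1 and Col5a1), 4 of 26 windows, against 19.6% of all windows. The windows of 3 of them, chosen because their transcripts differed in direction, are shown. They are chr10:59323046-59323345, forward strand, for P4ha1, chr5:136986769-136987068, forward strand, for Plod3 and chr7:99353190-99353489, reverse strand, for Serpinh1 (RefSeq, GRCm38.p6), with the match in capitals. It reads CACGT where the core lies on the strand opposite to the gene.
P4ha1: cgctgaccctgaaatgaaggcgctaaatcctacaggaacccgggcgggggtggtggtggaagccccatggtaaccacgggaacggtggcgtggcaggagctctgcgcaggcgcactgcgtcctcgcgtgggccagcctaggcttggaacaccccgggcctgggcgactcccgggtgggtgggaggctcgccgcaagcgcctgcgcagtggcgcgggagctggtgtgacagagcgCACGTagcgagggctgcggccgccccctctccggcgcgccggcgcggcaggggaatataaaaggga
Plod3: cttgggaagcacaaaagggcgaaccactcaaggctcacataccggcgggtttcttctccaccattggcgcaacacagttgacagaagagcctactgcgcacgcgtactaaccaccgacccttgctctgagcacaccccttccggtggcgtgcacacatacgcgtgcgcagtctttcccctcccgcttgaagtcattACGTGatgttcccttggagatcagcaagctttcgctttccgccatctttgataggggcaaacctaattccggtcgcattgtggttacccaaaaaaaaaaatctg
Serpinh1: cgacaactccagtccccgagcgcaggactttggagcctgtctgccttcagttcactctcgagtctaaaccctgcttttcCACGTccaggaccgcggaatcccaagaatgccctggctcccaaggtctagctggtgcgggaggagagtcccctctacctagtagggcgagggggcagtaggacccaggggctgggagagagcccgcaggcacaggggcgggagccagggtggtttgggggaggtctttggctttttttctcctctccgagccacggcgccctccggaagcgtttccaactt

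Counted with the start site as 0, the match began at -16 in P4ha1, at -54 in Plod3 and at -171 in Serpinh1. Of the 4 genes with the letters, P4ha1 and Col5a1 were higher in both libraries labelled CD95ko than in both controls. Serpinh1 was lower in both, and Plod3 overlapped between the groups. The part of hypoxia in these values was not tested. The AP-1 motif TGANTCA, searched on both strands, stood in 1 of the 26 windows found for 21 of the 29 matrix genes, that of Col6a1. It stood in 7.81% of all windows.

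The 4 crosslinking oxidases on the list of 43 stayed at or below 14.7 TPM in every library. Lox was listed at 0 in all libraries, and Loxl1 reached 0.99 TPM in the library labelled CD95ko 2 only. Loxl2 was at 4.75 and 3.22 TPM in controls 1 and 2, at 1.79 TPM in the library labelled CD95ko 1 and listed at 0 in the one labelled CD95ko 2. The groups did not overlap (log2 fold change -1.56 ± 0.74 SE, limma adjusted p = 0.364). The log2 fold change was -2.30 without the library labelled CD95ko 1 and -0.82 without the one labelled CD95ko 2. Loxl3 was at 6.77 and 6.29 TPM in the controls, at 0.44 TPM in the library labelled CD95ko 1 and at 14.7 TPM in the one labelled CD95ko 2. The clones lay on either side of the controls, so the log2 fold change of -0.66 ± 1.00 SE (limma adjusted p = 0.799) became 1.06 without the library labelled CD95ko 1. The antisense neighbour Htra2 shares 11.6% of the exonic bases of Loxl3, and the antisense gene Gm27177 shares 5.57% of those of Loxl2. Among the hydroxylases above, antisense genes share 11.7% of the exonic bases of Plod3 (Znhit1) and 6.42% of those of Plod2 (Gm38391). The small leucine-rich proteoglycans Bgn, Dcn and Lum, which bind collagen fibrils, were listed at 0 in all 4 libraries.

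A further list of 127 matrix genes outside the 43 gave the surroundings. Of these, 125 were in the files, 57 were listed at 0 in every library and 44 were tested. None of the 44 passed an adjusted p of 0.05 in limma, while at an unadjusted p under 0.05 there were 13 higher (29.5%, against 9.25% of all genes) and 2 lower (4.55%, against 5.68%) in the libraries labelled CD95ko. Groups did not overlap for 21 higher genes (47.7%, against 29.2% of all genes) and 8 lower genes (18.2%, against 18.3%). The median log2 fold change was 0.51, or 0.24 after correction for transcript length and GC content. Genes high in 1 group only, such as Wisp2, can pass the filter through that group, so these counts too are a description.

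The further genes with the smallest p-values included the processing enzymes and the epithelial anchors. Bmp1, the protease that trims the collagen propeptides, was at 141 and 114 TPM in controls 1 and 2 and at 276 and 331 TPM in the libraries labelled CD95ko 1 and CD95ko 2 (log2 fold change 1.25 ± 0.30 SE, limma adjusted p = 0.147). Ltbp3, which tethers latent TGF-β in the matrix, was at 127 and 90.8 TPM in the controls and at 275 and 295 TPM in the libraries labelled CD95ko 1 and CD95ko 2 (log2 fold change 1.40 ± 0.31 SE, limma adjusted p = 0.136). Col7a1, the anchoring fibril collagen that fastens the epithelial basement membrane, was at 28.7 and 13.4 TPM in the controls and at 51.9 and 105.7 TPM in the libraries labelled CD95ko 1 and CD95ko 2 (log2 fold change 1.86 ± 0.50 SE, limma adjusted p = 0.166). For these 3 genes both libraries labelled CD95ko exceeded both controls.

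Of the matrix receptors, the dystroglycan gene Dag1 was at 39.1 and 35.1 TPM in the controls and at 80.0 and 76.9 TPM in the libraries labelled CD95ko 1 and CD95ko 2 (limma adjusted p = 0.224). The syndecan gene Sdc1 was at 79.4 and 69.1 TPM in the controls and at 183 and 137.5 TPM in the libraries labelled CD95ko 1 and CD95ko 2 (limma adjusted p = 0.195). Wisp2, a matricellular gene, was listed at 0 in both controls and was at 3.70 and 3.87 TPM in the libraries labelled CD95ko 1 and CD95ko 2 (limma adjusted p = 0.189). It entered the test through the libraries labelled CD95ko alone, where it was high, so its p-value is a description. The lysyl oxidase gene Loxl4 ran opposite, at 79.2 and 53.1 TPM in the controls and 35.6 and 18.5 TPM in the libraries labelled CD95ko 1 and CD95ko 2 (log2 fold change -1.30 ± 0.44 SE, limma adjusted p = 0.239). It was the most abundant of the lysyl oxidase family in every library.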

How the data were processed

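The authors deposited 1 table per library with a gene symbol and a TPM value, per the file headers. STAR 2.6.0, RSEM 1.3.0 and the genome build mm10 are named in the submitters' processing notes, and the annotation is not given in the sources used here. TPM fixes the sum of each library, so sequencing depth is unknown and neither counting intervals nor count tests were possible. Where 0 is written, the gene is listed at 0. Libraries were grouped by their titles. Genes with at least 1 TPM in at least 2 libraries (11167) were transformed to log2(TPM + 1) and compared with limma 3.58.1 in R 4.3.3 (eBayes with a mean-variance trend, no covariate, two-sided, Benjamini-Hochberg adjustment over all genes, threshold 0.05). The procedure was tested on simulated data. With 2 libraries against 2, only the model gives p-values for single genes.

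The 43 genes, the further list and the tests were chosen with earlier results of these data known. Values in each library are given for the 3 most abundant genes of each role, for genes with an unadjusted p under 0.05, for genes over 4-fold apart in TPM within a group, for chains of a trimer and for up to 8 further matrix genes with the smallest p. A matrix gene that falls under these criteria is left out. Coordinates and transcript lengths are from GENCODE M21 (GRCm38), and promoter windows from RefSeq matched 21 of 29 genes by symbol. Alternatives were a pseudocount of 0.1, other filters, eBayes without trend or robust, quantile or median scaling, the replicate number as a block and leaving out each library. A correction for transcript length and GC content (natural splines) was added after the data were seen.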

Additional observations from a re-analysis of the deposited data

How the results depend on the processing

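The number of all genes past an adjusted p of 0.05 in limma, 6 as reported, was 0 with a pseudocount of 0.1, without a filter, without a variance trend, under quantile normalization and with equal library medians. It was 55 when genes needed a mean of at least 5 TPM, 52 with robust eBayes, 3 after the correction for transcript length and GC content, and 0 to 1034 with a library left out, and the cause was not tested. The matrix genes past the threshold numbered 0 under each alternative with 4 libraries and 0 to 7 with a library left out. With a library left out, matrix genes whose groups did not overlap numbered 12 to 18 higher and 3 to 6 lower. Fewer values then have to separate, for any gene. The shares over all genes in these fits are not given here, so these counts cannot be read as a result about matrix genes. The mean filter left 1 lower gene, because it removes Col6a1 and Loxl2. The median log2 fold change of the matrix genes stayed positive under every alternative, from 0.29 after the length and GC correction to 1.00 without the library labelled CD95ko 1. That correction turned Lamb1 to -0.0204, Lamc1 to -0.0295, Plod3 to -0.0310 and Plod1 to -0.10, with and without the block. Plod1 (0.13 as fitted) was -0.0964 under quantile normalization and -0.0742 with equal medians, and Plod2 (0.0405 as fitted) was -0.16 under both. With a library left out, the log2 fold change ranged from -0.0393 to 0.44 for Lamb1, -0.22 to 0.69 for Lamc1, -0.0357 to 0.87 for Col18a1, -0.0446 to 0.30 for Plod1, -0.28 to 0.36 for Plod2, -2.39 to 1.06 for Loxl3, -0.68 to 4.64 for Postn and -1.42 to 0.16 for Fas. The deviations of same-numbered libraries had a correlation over genes of -0.08. With only 1 difference in each group, this value cannot decide whether the titles' numbers mark a pairing. With these numbers as a block, 2 of all genes and 0 matrix genes passed, and 0 of all genes passed with the block and the length and GC correction together. Depth is unknown, so genes listed at 0 cannot be placed against a detection limit.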
